A study of Mus musculus with 8 samples.

Results

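The genes described here are 8 secreted synaptic organizers: the cerebellins Cbln1, Cbln2, Cbln3 and Cbln4, the neurexophilins Nxph1, Nxph3 and Nxph4, and the C1q-like gene C1ql3. Each was taken by its symbol from a gene expression table of 56575 features, of which 24338 carry a symbol, and each had a single row. The libraries come from whole hippocampus of C57BL/6 mice aged 8 weeks, 4 labelled Slm2KO and 4 labelled wild type (WT). The label Slm2KO names a knockout of SLM2, the RNA-binding splicing regulator encoded by Khdrbs3; the sources used here name neither the part of the gene that was removed nor any pooling of tissue. Both groups share strain, age and tissue, and no treatment is named. The study asked how overall expression and alternative splicing differ between the genotypes, and the values used here are 1 normalised read count per gene and library.

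Cerebellins and C1q-like proteins are secreted, assemble into multimers through a globular C1q domain and bridge the synaptic cleft. Cerebellins bind presynaptic neurexins on one side, and some of them bind delta glutamate receptors on the other. Cerebellins recognise the neurexin forms that carry an alternatively spliced segment whose use SLM2 controls. Neurexophilins are secreted glycoproteins that bind tightly to alpha-neurexins. C1q-like proteins bind the adhesion receptor ADGRB3, and at mossy fibre synapses of the hippocampus they help to gather kainate receptors opposite neurexins. The table measures the messenger RNA of the ligands, not their splicing or their protein.

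The libraries held 104020058 to 125985224 reads. Within a group, every pair of libraries differed by more than counting error, with a chi-square between 18.6 and 145 for each degree of freedom. The targeted gene Khdrbs3 had 25932 to 33366 normalised reads in libraries labelled Slm2KO and 19458 to 24544 in WT libraries, which goes against a loss of its RNA, so the group names below are those of the labels; a gene total does not check a deletion of part of the gene. Markers of the hippocampal subfields were present in every library. The choroid plexus transcript Ttr spanned 376053 to 2262370 in Slm2KO libraries and 219052 to 1791310 in WT libraries. Slm2KO 4 and WT 3 held the most Ttr and the lowest summed CA1 pyramidal cell markers. Y-linked reads were present in Slm2KO 3, Slm2KO 4 and WT 4. In whole tissue, fewer cells of a type and less RNA per cell cannot be told apart. The labels number the samples without naming separate animals. Y-linked reads were present in only some libraries of each label, so those libraries do not all repeat 1 animal or pool. The p-values reflect only how far these samples scatter, part of which may be technical.

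For none of the 8 organizer genes was a difference between Slm2KO and WT libraries detected beyond the spread between libraries. By limma on log2(value + 1), with Benjamini-Hochberg adjustment over all 25667 features whose mean reached 10, 0 of the 8 passed an adjusted p of 0.05; over all features the share that passed was 0.0039%, which is 1 feature, Khdrbs2. Khdrbs2 averaged 2481 ± 290 in Slm2KO and 1096 ± 98.4 in WT libraries (SD, n = 4 each), a log2 difference of 1.18 (limma adjusted p = 0.00761). An unadjusted limma p under 0.05 was reached by 0 of the 8, where the share over all features was 3.52%. edgeR's quasi-likelihood test and DESeq2 on recovered reads also called 0 of the 8, where they called 0.0039% and 0.0469% of the features with an adjusted p. The groups overlapped for all 8 genes, where 2.5% of all features had groups that did not overlap. The fitted log2 differences, Slm2KO minus WT, were positive for 4 genes and negative for 4, with a median of 0.02, against -0.01 over all features tested. All 8 passed the filter on low values. Each limma adjusted p was 1.00.

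How tightly a difference was bounded varied from gene to gene. The 95% confidence interval of the fold lay within 1.5-fold in either direction for 5 of the 8 genes (62.5%), against 65.7% of all features tested, and within 2-fold for all 8. The 3 genes with wider intervals were Cbln3, Nxph3 and Nxph4, whose libraries scattered most on the log2 scale. The scatter within groups (residual SD, log2) was 0.09 for Nxph1 and 0.11 for C1ql3, but 0.33 for Cbln3, 0.36 for Nxph4 and 0.48 for Nxph3; the median over all features tested was 0.18.

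**Figure D1:**
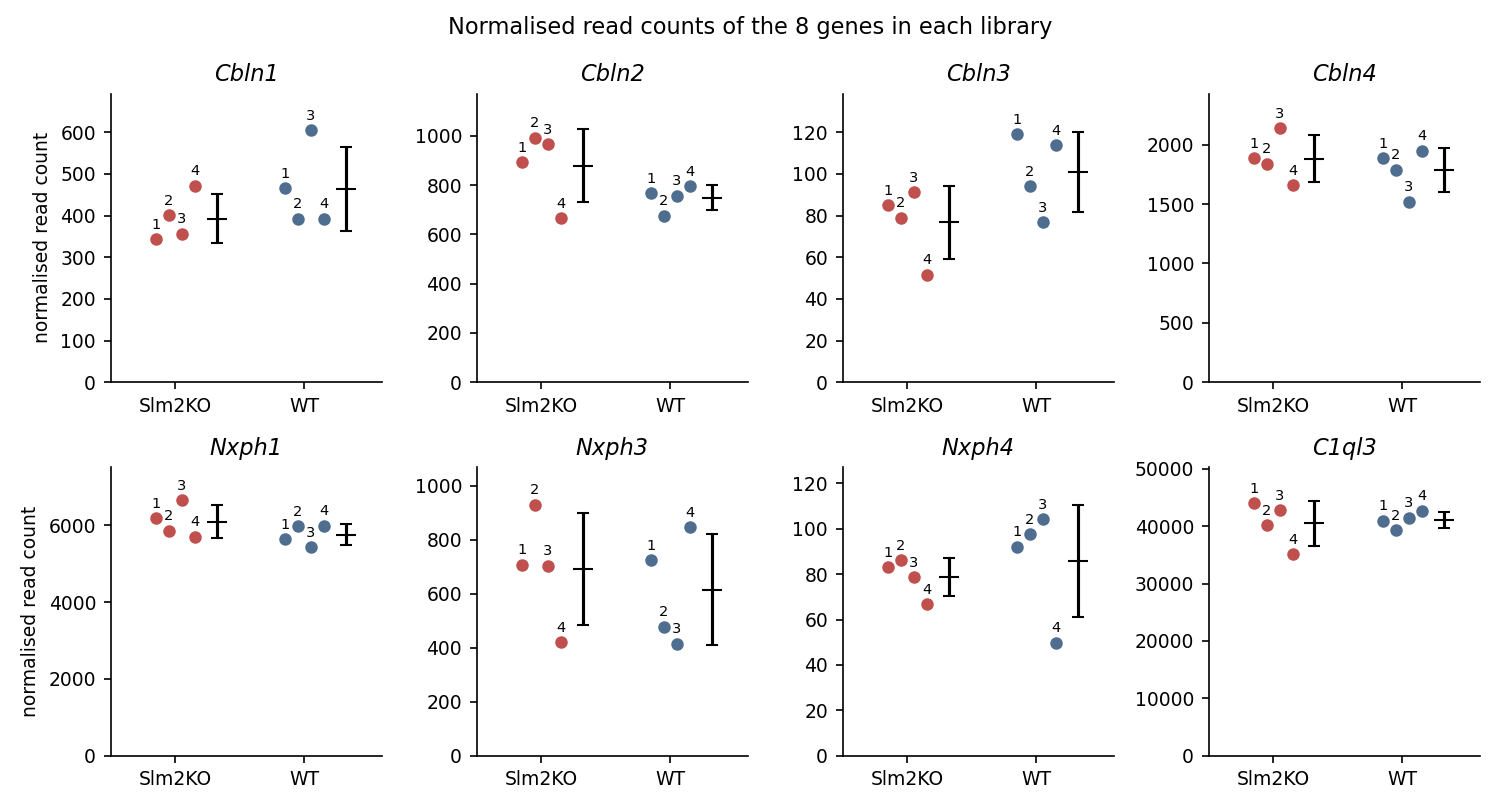
Normalised read counts (vertical axes, starting at 0) of the 8 genes in the Slm2KO libraries (left in each panel) and the WT libraries (right), with 1 numbered point per library and the mean ± SD as bars. The groups overlap in every panel, and Nxph3 has the widest scatter, with 421 in Slm2KO 4 and 414 in WT 3 at the low end and 929 in Slm2KO 2 at the high end.

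C1ql3 was by far the most abundant of the 8 and one of the steadiest. The gene lies on chromosome 2, 13001887 to 13011747, minus strand (mm10, as are all feature coordinates below). It had normalised read counts of 44051, 40168, 42776 and 35110 in Slm2KO libraries 1 to 4, against 40987, 39350, 41486 and 42742 in WT libraries 1 to 4. Slm2KO 4 was the lowest of all 8 libraries and the other Slm2KO libraries lay in or just above the WT range. The means were 40526 ± 3956 in Slm2KO and 41141 ± 1404 in WT libraries (SD, n = 4 each), and the interval of the fold was 0.879 to 1.10 (log2 difference -0.03, SE 0.07; limma adjusted p = 1.00, two-sided exact permutation p = 0.829). The sign of that difference turned without Slm2KO 4.

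Reads of C1ql3 can be confused with other transcripts over part of its length. In GENCODE vM21, 1574 of its 2506 distinct 30-base stretches also occur, on either strand, in transcripts of other genes, among them C1ql2 and the single-exon models Gm37811 and Gm37824 on the opposite strand. The library kit does not mark strand. The table lists 3 features on the opposite strand that overlap C1ql3. Their means were 17.4, 153 and, for Pter, 508 in Slm2KO libraries and 13.2, 179 and, for Pter, 516 in WT libraries. C1ql2, the nearest paralog, shares the longest exact coding stretch of any pair in these families, 38 bases. The pair is shown because reads inside this stretch cannot be assigned by sequence; capitals mark the shared letters and the flanking 12 bases are in lower case.
C1ql3 (coding base 409 onward; shared part on chromosome 2, 13010402 to 13010439, minus strand): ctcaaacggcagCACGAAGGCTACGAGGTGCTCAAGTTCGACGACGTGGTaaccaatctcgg
C1ql2 (coding base 505 onward; shared part on chromosome 1, 120341622 to 120341659, plus strand): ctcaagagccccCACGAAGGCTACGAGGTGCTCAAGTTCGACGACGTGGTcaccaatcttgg

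Among the cerebellins, Cbln4 was the highest per length, followed by Cbln2 and Cbln1, with Cbln3 lowest over its merged exons. Cbln4 binds neurexins and also the netrin receptor DCC, and in the forebrain it is known from somatostatin interneurons. The gene lies on chromosome 2, 172036229 to 172043468, minus strand. Its counts were 1888, 1841, 2140 and 1659 in Slm2KO libraries 1 to 4 and 1889, 1790, 1522 and 1950 in WT libraries 1 to 4. The groups covered nearly the same range, with means of 1882 ± 198 in Slm2KO and 1787 ± 189 in WT libraries (SD, n = 4 each). The log2 difference was 0.07 (SE 0.10; limma adjusted p = 1.00; two-sided exact permutation p = 0.543), and its interval ran from 0.905- to 1.23-fold. Without WT 3, the lowest library, the difference was -0.0004.

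Cbln2, a cerebellin of many forebrain neurons that also bridges neurexins and delta receptors, had the largest positive fitted difference of the 8. It lies on chromosome 18, 86711110 to 86718283, plus strand. Its counts were 893, 993, 966 and 665 in Slm2KO libraries 1 to 4, against 768, 676, 756 and 795 in WT libraries 1 to 4. Of the Slm2KO libraries 3 lay above every WT library, and Slm2KO 4 lay below every one. The means were 879 ± 149 in Slm2KO and 749 ± 51.3 in WT libraries (SD, n = 4 each), with a log2 difference of 0.22 (SE 0.13) that missed the threshold (limma unadjusted p = 0.115, adjusted p = 1.00; two-sided exact permutation p = 0.200). The interval ran from 0.957- to 1.41-fold. The difference was 0.39 among the libraries whose sample numbers lie below 300 and 0.05 among those above, with 2 libraries per label in each series, and it was 0.34 without Slm2KO 4. Among the 2 Slm2KO libraries and 1 WT library with Y-linked reads it was 0.01. Among the 2 Slm2KO and 3 WT libraries without them it was 0.36.

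Cbln1, the founding member, which joins parallel fibres to Purkinje cells in the cerebellum, lay in the opposite direction. It is on chromosome 8, 87468405 to 87473083, minus strand. Its counts were 343, 401, 357 and 472 in Slm2KO libraries 1 to 4, against 466, 392, 605 and 392 in WT libraries 1 to 4. WT 3 stood highest of all libraries, and Slm2KO 1 and Slm2KO 3 lay below every WT library. The means were 393 ± 58.1 in Slm2KO and 464 ± 100 in WT libraries (SD, n = 4 each), with a log2 difference of -0.23 (SE 0.16) that missed the threshold (limma unadjusted p = 0.181, adjusted p = 1.00; two-sided exact permutation p = 0.314). It was -0.09 without WT 3. Among the 2 Slm2KO libraries and 1 WT library with Y-linked reads the Cbln1 difference was 0.06. Among the 2 Slm2KO and 3 WT libraries without them it was -0.37. The non-coding gene Gm2694, on the opposite strand, shares 274 bases with the Cbln1 feature and averaged 97.9 in Slm2KO and 106 in WT libraries.

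Cbln3, which needs Cbln1 to leave the cell and is known from cerebellar granule cells, had the largest negative fitted difference of the 8 and a low count. It lies on chromosome 14, 55878920 to 55884256, minus strand. It had 85.0, 78.9, 91.2 and 51.7 in Slm2KO libraries 1 to 4, against 119, 94.0, 76.9 and 114 in WT libraries 1 to 4. All 4 Slm2KO libraries lay below the WT mean, but Slm2KO 1, 2 and 3 lay above WT 3. The means were 76.7 ± 17.4 in Slm2KO and 101 ± 19.4 in WT libraries (SD, n = 4 each). The log2 difference of -0.40 (SE 0.22) missed the threshold (limma unadjusted p = 0.0971, adjusted p = 1.00; two-sided exact permutation p = 0.143), and the interval ran from 0.538- to 1.06-fold. The difference was -0.23 without Slm2KO 4. It was -0.72 among the 2 Slm2KO libraries and 1 WT library with Y-linked reads. Among the 2 Slm2KO and 3 WT libraries without them it was -0.21. At this depth counting alone gives a coefficient of variation of about 10.5%, against 22.7% seen among Slm2KO and 19.2% among WT libraries.

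Of the 5 cerebellar markers, Gabra6, Fat2, Pcp2 and Barhl1 were low and Slc1a6 was not. Gabra6, the granule cell GABA receptor subunit, had 7.39, 4.21, 2.07 and 1.08 in Slm2KO libraries 1 to 4 and 13.0, 2.71, 4.05 and 7.66 in WT libraries 1 to 4. Fat2, a granule cell cadherin, had 20.3, 4.21, 10.4 and 23.7 in Slm2KO libraries 1 to 4 and 62.1, 16.3, 22.3 and 38.3 in WT libraries 1 to 4. The summed level of all 5 cerebellar markers, most of it Slc1a6, a glutamate transporter gene with 711 to 1173 in Slm2KO and 788 to 1020 in WT libraries, was 747 to 1203 in Slm2KO and 816 to 1069 in WT libraries, and no marker was at 0 in every library, though Pcp2 and Barhl1 were at 0 in some. Their part in the Cbln3 values was not tested.

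The longest exact coding stretch shared by Cbln1 and Cbln3 is 21 bases, and no 30-base stretch of Cbln1, Cbln2 or Cbln4 occurs in the transcripts of another gene. The stretch is shown because these proteins assemble together and are the cerebellins with the lowest levels; it crosses an exon junction in both genes, so its genome span includes an intron. Capitals mark the shared letters.
Cbln1 (coding base 249 onward; chromosome 8, 87471807 to 87471992, minus strand): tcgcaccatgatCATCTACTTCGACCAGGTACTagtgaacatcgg
Cbln3 (coding base 261 onward; chromosome 14, 55883582 to 55883927, minus strand): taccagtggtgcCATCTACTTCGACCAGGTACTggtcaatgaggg
Cbln3 differs from the other cerebellins in that 163 of its 4865 distinct 30-base stretches recur in transcripts of 1798 other genes, as sequence of a dispersed repeat does. The sources used here do not say how such reads were assigned.

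The library-to-library deviations of Cbln3 and Cbln4 were the most alike of all organizer pairs over the 8 libraries (Pearson r of 0.91), so their start regions are set side by side. Without Slm2KO 4 and WT 3 their r was 0.76, and that of Cbln2 with Nxph3 was the highest, at 0.92. RefSeq (GRCm38.p6) windows of 300 bases, from 250 before the start to 50 from it, matched 4 of the 8 genes: C1ql3, Cbln3, Cbln4 and Nxph1. Capitals mark matches on either strand to the TATA box, searched as TATAAA. They also mark the GC box, searched as GGGCGG, the E-box, searched as CANNTG, and the cAMP response element, searched as TGACGTCA.
Cbln3 (chr14:55884207-55884506, minus strand): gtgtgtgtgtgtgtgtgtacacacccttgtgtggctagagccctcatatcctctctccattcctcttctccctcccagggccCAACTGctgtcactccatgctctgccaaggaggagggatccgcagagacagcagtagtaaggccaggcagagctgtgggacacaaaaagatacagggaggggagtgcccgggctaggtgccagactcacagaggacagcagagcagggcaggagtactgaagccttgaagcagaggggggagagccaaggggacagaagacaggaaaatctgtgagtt
Cbln4 (chr2:172043417-172043716, minus strand): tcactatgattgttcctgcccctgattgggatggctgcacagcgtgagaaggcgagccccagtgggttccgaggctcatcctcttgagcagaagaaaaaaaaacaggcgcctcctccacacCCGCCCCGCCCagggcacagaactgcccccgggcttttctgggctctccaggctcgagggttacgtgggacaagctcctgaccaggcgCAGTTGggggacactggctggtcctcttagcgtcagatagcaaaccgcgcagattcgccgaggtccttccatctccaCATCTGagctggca
The Cbln3 window held 1 E-box, no GC box and 2 CG pairs. The Cbln4 window held 2 E-boxes, 2 overlapping GC boxes and 15 CG pairs. The windows of C1ql3 and Nxph1 each held 1 E-box and 2 GC boxes, with 25 and 21 CG pairs. Among 32851 mouse windows of this length, 72.3% hold the E-box letters, 35.7% the GC box, 13.6% the TATA box and 1.79% the cAMP response element; none of the 4 windows held either of the last 2. The RefSeq starts of C1ql3 and Nxph1 lie inside their features rather than at the end.

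Among the neurexophilins, Nxph1 was the highest per length and the steadiest, Nxph3 varied most and Nxph4 was low. Nxph1, a ligand of alpha-neurexins known from inhibitory interneurons, lies on chromosome 6, 8948613 to 9249267, plus strand. It had 6185, 5854, 6652 and 5701 in Slm2KO libraries 1 to 4, against 5633, 5981, 5431 and 5991 in WT libraries 1 to 4. Slm2KO 1 and Slm2KO 3 lay above every WT library, and the other Slm2KO libraries lay within the WT range. The means were 6098 ± 421 in Slm2KO and 5759 ± 274.7 in WT libraries (SD, n = 4 each), a log2 difference of 0.08 (SE 0.06; limma adjusted p = 1.00; two-sided exact permutation p = 0.257). Its interval, 0.961- to 1.16-fold, was the narrowest of the 8 genes. The summed GABAergic interneuron markers spanned 74585 to 89272 in Slm2KO and 78083 to 83417 in WT libraries.

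Nxph3, a neurexophilin of restricted neuron groups, ranged 2.24-fold over the 8 libraries, with high and low libraries under both labels. It lies on chromosome 11, 95509846 to 95514567, minus strand. Its counts were 708, 929, 704 and 421 in Slm2KO libraries 1 to 4, against 723, 477, 414 and 847 in WT libraries 1 to 4. The coefficient of variation was 30.1% among Slm2KO and 33.2% among WT libraries, where counting alone gives 3.90%. The means were 690 ± 208 in Slm2KO and 615 ± 204 in WT libraries (SD, n = 4 each), a log2 difference of 0.17 (SE 0.27; limma adjusted p = 1.00; two-sided exact permutation p = 0.714). The interval ran from 0.741- to 1.71-fold, which spans a change of either sign. The difference was -0.64 among the 2 Slm2KO libraries and 1 WT library with Y-linked reads and 0.63 among the 2 Slm2KO and 3 WT libraries without them. In the lower series of sample numbers it was 0.46. In the higher series, which holds the same 2 Slm2KO libraries with Y-linked reads, it was -0.12. It was 0.39 without Slm2KO 4 and 0.002 without WT 3.

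Nxph4, a further member of the neurexophilin family, lies on chromosome 10, 127525473 to 127534560, minus strand. It had 83.2, 86.3, 78.8 and 66.8 in Slm2KO libraries 1 to 4, against 92.1, 97.6, 104 and 49.8 in WT libraries 1 to 4. The 3 WT libraries other than WT 4 lay above every Slm2KO library, and WT 4 was the lowest of all. The means were 78.8 ± 8.55 in Slm2KO and 86.0 ± 24.6 in WT libraries (SD, n = 4 each), a log2 difference of -0.08 (SE 0.24; limma adjusted p = 1.00; two-sided exact permutation p = 0.829). It was -0.32 without WT 4, -0.0004 without Slm2KO 4, and its sign turned without WT 3 or WT 2. It was 0.53 among the 2 Slm2KO libraries and 1 WT library, WT 4, with Y-linked reads. Among the 2 Slm2KO and 3 WT libraries without them it was -0.21. Counting alone gives a coefficient of variation of about 11.0% at this depth, against 10.9% among Slm2KO and 28.7% among WT libraries.
Nxph3 and Nxph4 share the longest exact coding stretch of the 3 neurexophilin pairs, 24 bases, which is under the 30 used for the search, and no 30-base stretch of Nxph1, Nxph3 or Nxph4 occurs in another gene. It is shown to mark where these paralogs are closest; capitals are the shared letters.
Nxph3 (coding base 693 onward; shared part on chromosome 11, 95510871 to 95510894, minus strand): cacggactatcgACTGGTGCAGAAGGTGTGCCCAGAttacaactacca
Nxph4 (coding base 855 onward; shared part on chromosome 10, 127526143 to 127526166, minus strand): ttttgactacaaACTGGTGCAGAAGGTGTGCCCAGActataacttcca

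Levels of different genes can be compared only per length, so each normalised read count was divided by the merged exon length of the gene in GENCODE vM21. C1ql3 had 15987 ± 1561 normalised reads per kb in Slm2KO and 16229 ± 554 in WT libraries (SD, n = 4 each). Its mean over the 8 libraries was 12.9 times that of Nxph1 over merged exons, which had 1283 ± 88.6 in Slm2KO and 1212 ± 57.8 in WT libraries per kb. Cbln4 followed at 649 ± 68.3 per kb in Slm2KO and 616 ± 65.1 in WT libraries. These 3 genes kept that order in 8 of 8 libraries. The size of the gap depends on the length used: the mean of Nxph1, 1247 per kb over merged exons, becomes 2106 over its longest and 2300 over its shortest coding transcript, while that of C1ql3 stays at 16108.

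The middle of the order was less fixed. Nxph3 had 329 ± 99.1 normalised reads per kb in Slm2KO and 293 ± 97.2 in WT libraries, and Cbln2 had 304 ± 51.5 in Slm2KO and 259 ± 17.7 in WT libraries. Nxph3 exceeded Cbln2 in 5 of 8 libraries, so these neighbours do not differ beyond their spread. Cbln1 had 129 ± 19.1 per kb in Slm2KO and 153 ± 33.1 in WT libraries. Nxph4 had 47.0 ± 5.10 per kb in Slm2KO and 51.3 ± 14.7 in WT libraries. Cbln3 had 15.8 ± 3.58 per kb in Slm2KO and 20.8 ± 3.98 in WT libraries. The order of these neighbours also turns with the length used: Cbln2 has a mean of 319 per kb over its longest and 427 over its shortest coding transcript, above the 311 of Nxph3. The place of Cbln3 depends on the length as well: over its shorter coding transcript of 1438 bases, in place of 4866, its mean over the 8 libraries becomes 61.8 per kb, above the 49.2 of Nxph4.

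**Figure D2:**
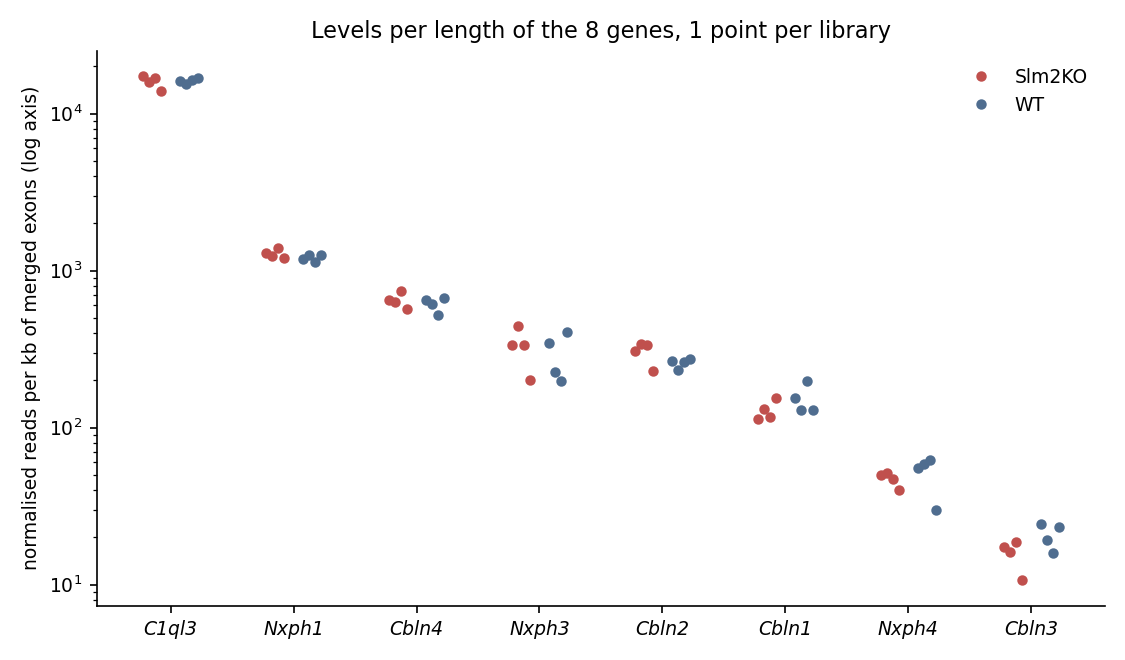
Normalised reads per kb of merged exons (log axis) of the 8 genes, ordered by their mean over the 8 libraries, with 1 point per library, Slm2KO left of WT for each gene. C1ql3 stands above Nxph1 in 8 of 8 libraries, and Nxph3 and Cbln2 overlap.

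Each family was led by 1 gene under both labels. Of the summed cerebellin level per kb, Cbln4 made up 59.1% ± 1.99 in Slm2KO and 58.7% ± 4.30 in WT libraries, and Cbln2 27.5% ± 2.81 in Slm2KO and 24.7% ± 1.15 in WT libraries (SD, n = 4 each). Of the summed neurexophilin level, with Nxph2 included, Nxph1 made up 72.0% ± 4.53 in Slm2KO and 72.2% ± 3.66 in WT libraries. Of the summed C1q-like level, C1ql3 made up 87.8% ± 2.02 in Slm2KO and 87.1% ± 1.04 in WT libraries, with C1ql2 at 11.2% ± 1.95 in Slm2KO and 11.8% ± 1.08 in WT libraries. The shares of the leading genes differed between the labels by less than their spread.

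The genes that receive or accompany these ligands were listed apart. Nrxn2, Grid1 and Neo1 each had 2 rows under their symbol, of which only the row with the higher mean was used. The same was done for the marker genes Mpped1 and Lhx9. Of 8 receptors and binding partners, all tested, 0 passed in limma in either direction, against 0.0039% of all features; 0 reached an unadjusted p under 0.05, and edgeR and DESeq2 also called 0. Of them 2 had a positive and 6 a negative difference, with a median of -0.05, where 53.9% of all features were negative. The interval lay within 1.5-fold for all 8. Grid1, the delta receptor that some forebrain cerebellins reach, had counts of 8455, 8983, 8141 and 6522 in Slm2KO libraries 1 to 4. In WT libraries 1 to 4 it had 7923, 9151, 7475 and 8543. Slm2KO 4 was the lowest library for Grid1, and the other Slm2KO libraries lay within the WT range.

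Adgrb3, the receptor of C1q-like proteins (listed in the table under its older symbol Bai3), averaged 8230 ± 816 in Slm2KO and 8159 ± 697 in WT libraries (SD, n = 4 each). Grik2 and Grik4, kainate receptor subunits of the mossy fibre synapse, had log2 differences of 0.08 (SE 0.06) and -0.09 (SE 0.10). Dcc, a netrin receptor that Cbln4 can bind, had a log2 difference of -0.08 (SE 0.13), and its relative Neo1 one of -0.04 (SE 0.06). Nrxn2, which encodes a neurexin, the presynaptic receptor of these ligands, had the smallest p of the list. Its counts were 5059, 4737, 4714 and 3912 in Slm2KO libraries 1 to 4 and 4877, 5183, 5129 and 5034 in WT libraries 1 to 4. Its log2 difference was -0.14 (SE 0.08; limma unadjusted p = 0.0950, adjusted p = 1.00; two-sided exact permutation p = 0.0857), with 3 Slm2KO libraries below every WT library. The Nrxn2 difference was -0.06 without Slm2KO 4.

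The remaining family members were C1ql1, C1ql2, C1ql4 and Nxph2. C1ql2, made by dentate granule cells, had 4770, 5019, 3968 and 2769 in Slm2KO libraries 1 to 4 and 4694, 4629, 4093 and 4088 in WT libraries 1 to 4, with Slm2KO 4 well below the rest. The summed counts of 6 granule cell markers were also lowest in Slm2KO 4, at 20021, and spanned 20021 to 24692 in Slm2KO and 24521 to 25940 in WT libraries. All 6 granule cell markers had negative differences, 4 of them with an unadjusted limma p under 0.05 and 0 with an adjusted one, against 3.52% and 0.0039% of all features, and their part in the C1ql2 values was not tested. C1ql1 averaged 260 ± 38.7 in Slm2KO and 308 ± 45.6 in WT libraries, and Nxph2 averaged 334 ± 57.6 in Slm2KO and 324 ± 44.8 in WT libraries (SD, n = 4 each). C1ql4 held 0 to 6 reads in a library and was not tested. None of the 3 tested genes passed in limma, edgeR or DESeq2.

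**Figure D3:**
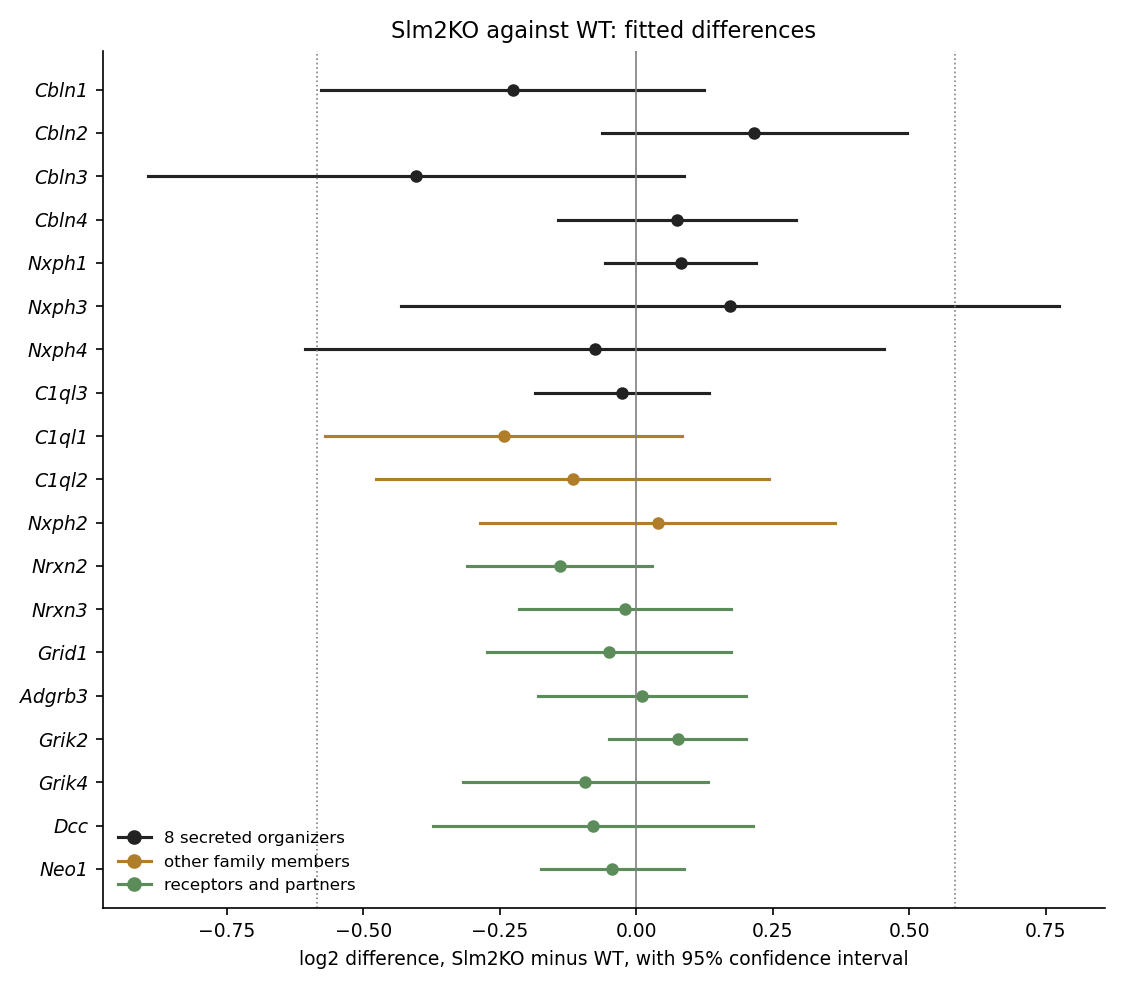
Fitted log2 differences, Slm2KO minus WT (points), with 95% confidence intervals from limma (lines), for the 8 organizers, 3 other family members and 8 receptors and partners. Dotted lines mark 1.5-fold; every interval includes 0, and those of Cbln3, Nxph3 and Nxph4 are the ones that cross a dotted line.

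What varied between libraries was shared by several organizers. After the mean of each label group was subtracted, deviations correlated positively in 18 of the 28 pairs among the 8 organizers. Those of Cbln2, Cbln3, Cbln4, Nxph1, Nxph3 and C1ql3 did so in all 15 of their pairs (Pearson r of at least 0.38). The deviations of Cbln1 correlated negatively with each of these 6 genes (-0.34 to -0.84). Nxph4 had r between -0.34 and 0.31 with the other organizers. The 6 genes were grouped by these same correlations, so their shared sign is no separate result. The correlations are descriptions over 8 libraries that were scaled together and that differ in their tissue composition, as the marker sums below show. Slm2KO 4 was the lowest Slm2KO library for all 6 of these genes, and WT 3 the lowest WT library for Cbln3, Cbln4, Nxph1 and Nxph3. For Cbln1, these were the highest library of each label.

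The same libraries stood apart in several cell type and region markers, though not in the same direction for every list. The summed counts of 5 CA1 pyramidal markers were 14432 in Slm2KO 4 and 13068 in WT 3, against 21231 to 25899 in the other 6 libraries, and Slm2KO 4 and WT 3 were the lowest libraries for 4 of the 5 markers (Wfs1, Fibcd1, Pou3f1 and Mpped1). The summed counts of 8 thalamic and habenular markers were 19159 in Slm2KO 4 and 19671 in WT 3, against 10603 to 15018 in the other 6. That sum rests on Prkcd (37.9%) and Calb2 (36.0%), and hippocampal mossy cells and interneurons also express Calb2. Prkcd, Calb2 and the vesicular glutamate transporter gene Slc17a6 were the 3 of 8 markers highest in those libraries. Slm2KO 4 and WT 3 were also the highest library of each label for the 8 choroid plexus markers and for the 5 oligodendrocyte markers, whose sums were 794292 in Slm2KO 4 and 892358 in WT 3. They were the lowest of each label for the 4 microglial markers, at 23121 in Slm2KO 4 and 24603 in WT 3. For the 5 markers of subiculum and cortical layer 6b they were also lowest of each label, at 6376 and 8301. Fn1, with a mean of 7080, makes up most of that sum. The 5 endothelial markers were likewise lowest of each label there, at 6304 in Slm2KO 4 and 7740 in WT 3. For oligodendrocyte markers WT 4, at 808225, also lay above Slm2KO 4. In other lists Slm2KO 4 and WT 3 went opposite ways. The granule cell sum was lowest of all libraries in Slm2KO 4, at 20021, and highest in WT 3, at 25940. The astrocyte sum was 113068 in Slm2KO 4, the lowest of its label, and 125735 in WT 3, the highest of all. By label, the CA1 sum spanned 14432 to 24914 in Slm2KO and 13068 to 25899 in WT libraries, and the thalamic sum 10603 to 19159 in Slm2KO and 12103 to 19671 in WT libraries. The oligodendrocyte sum spanned 646813 to 794292 in Slm2KO and 626487 to 892358 in WT libraries, and the microglial sum 23121 to 28514 in Slm2KO and 24603 to 28617 in WT libraries. No marker of these lists was at 0 in every library, and their part in the Nxph3 and Cbln1 values was not tested.

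Without Slm2KO 4 and WT 3 the calls among the 8 genes did not change: 0 passed in limma. The log2 difference then was 0.35 for Cbln2, -0.18 for Cbln1, -0.35 for Cbln3 and 0.22 for Nxph3. In those 6 libraries 2 of the 15 pairs correlated negatively, Cbln2 with Nxph1 and Nxph1 with Nxph3, and Cbln1 correlated positively with Cbln2, Cbln3 and Nxph3.

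**Figure D4:**
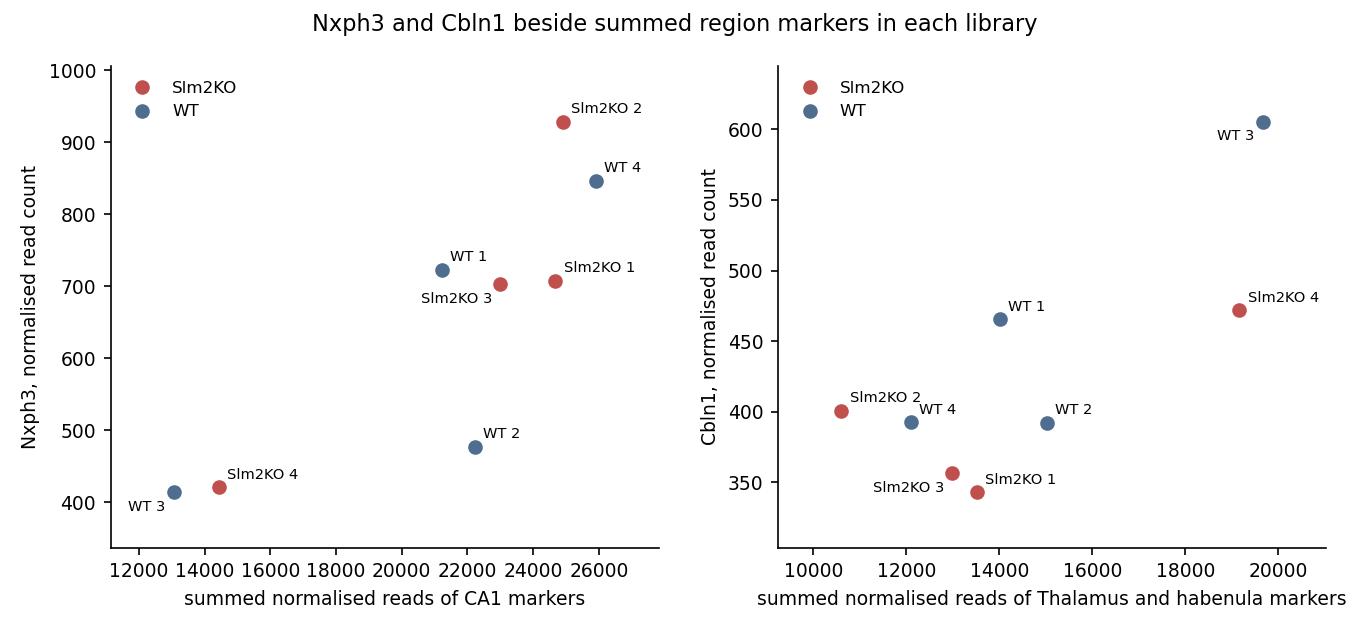
Left, normalised read count of Nxph3 against the summed counts of 5 CA1 markers; right, that of Cbln1 against the summed counts of 8 thalamic and habenular markers; 1 point per library, axes not starting at 0. Slm2KO 4 and WT 3 lie at the low end of the CA1 sum with Nxph3 counts of 421 and 414, and at the high end of the thalamic sum with Cbln1 counts of 472 and 605. WT 2 has a Nxph3 count of 477 at a CA1 sum of 22225. WT 1 has a Cbln1 count of 466 at a thalamic sum of 14006.

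A search for the genes most like each organizer compared these deviations over the 8 libraries with those of 15827 named genes of at least 50 mean counts. Among the 3 closest were Ripk1, Gm20255 and Tmem2 for Cbln1, Gga2 and 2300009A05Rik for Cbln2, Kcnk2, AI854517 and Efcc1 for Cbln3, and Exosc1, Pabpc5 and A930033H14Rik for Cbln4. For the neurexophilins they were 3110082I17Rik, Wdr73 and Tchh for Nxph1, Cwh43, BC061194 and 0610009L18Rik for Nxph3, and Nadsyn1, Neurod4 and Mnd1 for Nxph4. Those of C1ql3 were Zfp282, Emd and A330050F15Rik. The Pearson r of the deviations with the closest gene lay between 0.961 for Nxph4 and 0.995 for C1ql3. With so few libraries such values arise for many genes: between 18 and 241 genes reached 0.9 for a single organizer.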

How the data were processed

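RNA was extracted from flash-frozen hippocampus with Trizol and made into libraries with the Illumina TruSeq RNA kit, per the labels' protocols; that kit does not mark strand. The deposited table holds 1 signal value per feature and library, a read count the authors scaled with DESeq, per the submitters' processing notes, and not divided by gene length. The notes list hg19, whereas the file header states mm10. The aligner, counting program and read length, not given in the sources used here, could shift how reads of paralogs were assigned. Values in each library were whole multiples of 1 step (100% within 0.001 of a read), so reads were recovered. The step of WT 1, at 1.00146, lies close to 1, and its values fell on that step as well. limma 3.58.1 (R 4.3.3) compared the 4 Slm2KO with the 4 WT libraries on log2(value + 1), with an intensity trend, for features with a mean of at least 10; the pseudocount shrinks changes of low genes. The fit was tested on simulated data. edgeR 4.0.16 and DESeq2 1.42.0 were run on the recovered reads. Exact permutation tests cover 70 assignments, so their smallest p is 0.0286. Intervals are 95% intervals. Counting variation covers counting error only. Alternatives are given in the closing section. The named genes are the 8 organizers, the listed partners and family members, and the 3 genes most like each organizer; some are not reported here. The organizers and lists were chosen with earlier results of these data known. Splicing was not analysed here.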

Additional observations from a re-analysis of the deposited data

How the results depend on the processing

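None of the 8 organizers or 11 other pathway genes passed in any of the 23 alternatives: pseudocounts 0.5 and 10, no filter or a mean of at least 50, TMM or upper quartile scaling, limma without the trend, edgeR, DESeq2, 4 covariates or blocks, each library left out, and 2 pairs of libraries left out, of which the pair of lowest CA1 markers was chosen after seeing the data. Across all features 1 passed, against 2 with a pseudocount of 10, 0 without the trend, 9 by DESeq2, 2 with Ttr as a covariate and 0 to 2 with 1 library left out. Cbln1, Cbln2, Cbln3, Nxph1 and Nxph3 kept their sign in all 23. The splits by Y-linked reads and by series of sample numbers are not among these 23. Cbln1 differed in sign within the split by Y-linked reads, and Nxph3 within both splits. With 1 library left out, the log2 difference ran from -0.318 to -0.091 for Cbln1, 0.152 to 0.345 for Cbln2, -0.526 to -0.227 for Cbln3, -0.000354 to 0.134 for Cbln4, 0.0386 to 0.113 for Nxph1, 0.00183 to 0.39 for Nxph3, -0.317 to 0.0339 for Nxph4, -0.0684 to 0.0407 for C1ql3, -0.188 to -0.0642 for Nrxn2, -0.0845 to 0.0495 for Nrxn3, -0.107 to 0.0465 for Grid1, -0.0412 to 0.0851 for Adgrb3, -0.223 to 0.0634 for C1ql2 and -0.0629 to 0.137 for Nxph2. Nxph4 turned to 0.0583 with Y-linked reads as a covariate. Without the libraries of lowest and highest Ttr, Nxph4 turned to 0.0784, C1ql3 to 0.0195, Nrxn3 to 0.102, Grid1 to 0.0965, Grik4 to 0.0453, Dcc to 0.0426 and C1ql2 to 0.0915. Without those of lowest CA1 markers, Nxph4 turned to 0.11, C1ql3 to 0.045 and C1ql2 to 0.0323. The cause of these turns was not tested. Deviations of same-numbered libraries correlated at 0.318, 0.541, -0.12 and -0.0101. Libraries 1 and 2 of each label correlated best with their own number, and libraries 3 and 4 did not. This check cannot tell whether the numbers pair the samples, because the deviations also hold differences in tissue composition. The main fit left the samples unpaired. With the replicate block 1 feature passed, as without it, and 0 of the organizers. Depth limits Cbln3 and Nxph4, which had 48 to 119 and 52 to 108 reads in a library.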
